A study of Mus musculus with 12 samples.

Results

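The 10 lipogenesis genes followed in mouse liver were Srebf1, Acly, Acss2, Acaca, Fasn, Scd1, Elovl6, Lpin1, Pnpla3 and Thrsp, chosen by their symbols as genes of fatty acid and triglyceride synthesis. The choice was made with earlier results of these data known, so counts of members set against all genes are a description and no test. All 10 were found among the 24421 genes of the count table, and all 10 were among the 14443 genes that passed the filter on low counts. Livers came from C57BL/6 mice, 15 months old, and their RNA was sequenced. There were 3 libraries in each of 4 groups, namely tumours of mice labelled as lacking both Atg7 and Hmgb1 (double knockout, DKO), non-tumour liver of DKO mice, tumours of mice lacking Atg7 alone (Atg7KO), and non-tumour liver of Atg7KO mice. By the labels every group lacked Atg7, an enzyme needed to form autophagosomes, so none of the 4 groups is labelled as having intact Atg7. Hmgb1 is a chromatin protein that also acts as a danger signal outside the cell. The labels give neither a Cre driver nor a sex or a batch, and nothing states that each library is from a different animal. Within a genotype, tumour and non-tumour titles share replicate numbers, but the labels do not say that a number marks an animal. The p-values therefore reflect the variation among these libraries, which may be partly technical.

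In hepatocytes, fatty acids are built from acetyl-CoA, which Acly makes from citrate and Acss2 from acetate. Acaca carboxylates it to malonyl-CoA, Fasn assembles palmitate, and Elovl6 and Scd1 lengthen and desaturate the product before it enters triglyceride. Insulin drives this programme through Srebf1, which encodes the transcription factors SREBP-1a and SREBP-1c, and the liver X receptor raises Srebf1 transcription when sterols are plentiful. Lpin1 makes the diacylglycerol that precedes triglyceride and also acts as a coregulator in the nucleus. Pnpla3 is a lipid droplet protein and SREBP-1c target, and Thrsp is a thyroid-hormone-responsive protein that follows lipogenic activity in liver.

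Library totals ran from 18292190 to 32354958 reads, and the common biological coefficient of variation was 0.365. Levels are given as CPM, the reads of a gene scaled to the size of its library with TMM factors, and intervals from counts alone would cover counting error only. Reads of both targeted genes were present in all 12 libraries, 88 to 401 for Atg7 and 1732 to 4355 for Hmgb1. Hmgb1 had 60.5 to 91.5 CPM in DKO tumours, against 95.8 to 136 CPM in Atg7KO tumours, and 83.5 to 118 CPM in DKO non-tumour liver, against 104 to 125 CPM in Atg7KO non-tumour liver, where the groups overlapped. The count per gene does not show which exons the reads fall in, so it does not check the deletions. The loss of Atg7 in all 12 libraries and of Hmgb1 in the DKO libraries is taken from the labels. Reads of 4 Y-linked genes summed to 1898 to 4639 in each DKO library and to 0 to 2 in each Atg7KO library, whereas Xist had 0 to 2 reads in DKO libraries and 1130 to 12216 in Atg7KO libraries. This is the pattern of male DKO and female Atg7KO mice, although the labels give no sex. Genotype and sex, as read from these transcripts, cannot be told apart in any comparison of DKO with Atg7KO livers. The same holds where their tumour effects are compared.

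The lipogenesis genes stood lower in Atg7KO tumours than in Atg7KO non-tumour liver, with all 10 log2 fold changes below 0, against 50.2% of all genes, and a median of -1.32, against -0.00 over all genes. In DKO livers 9 of 10 were below 0, against 49.1% of all genes, with a median of -0.57, against 0.01 over all genes. No member passed an adjusted p of 0.05 with edgeR in any comparison, and edgeR called few other genes. The spread within groups was wide, and 2 libraries set much of it. DKO tumour replicate 1 held the lowest level of 8 of 10 members among the 12 libraries, and Atg7KO non-tumour replicate 2 held the highest level of 8 of 10.

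**Figure D1:**
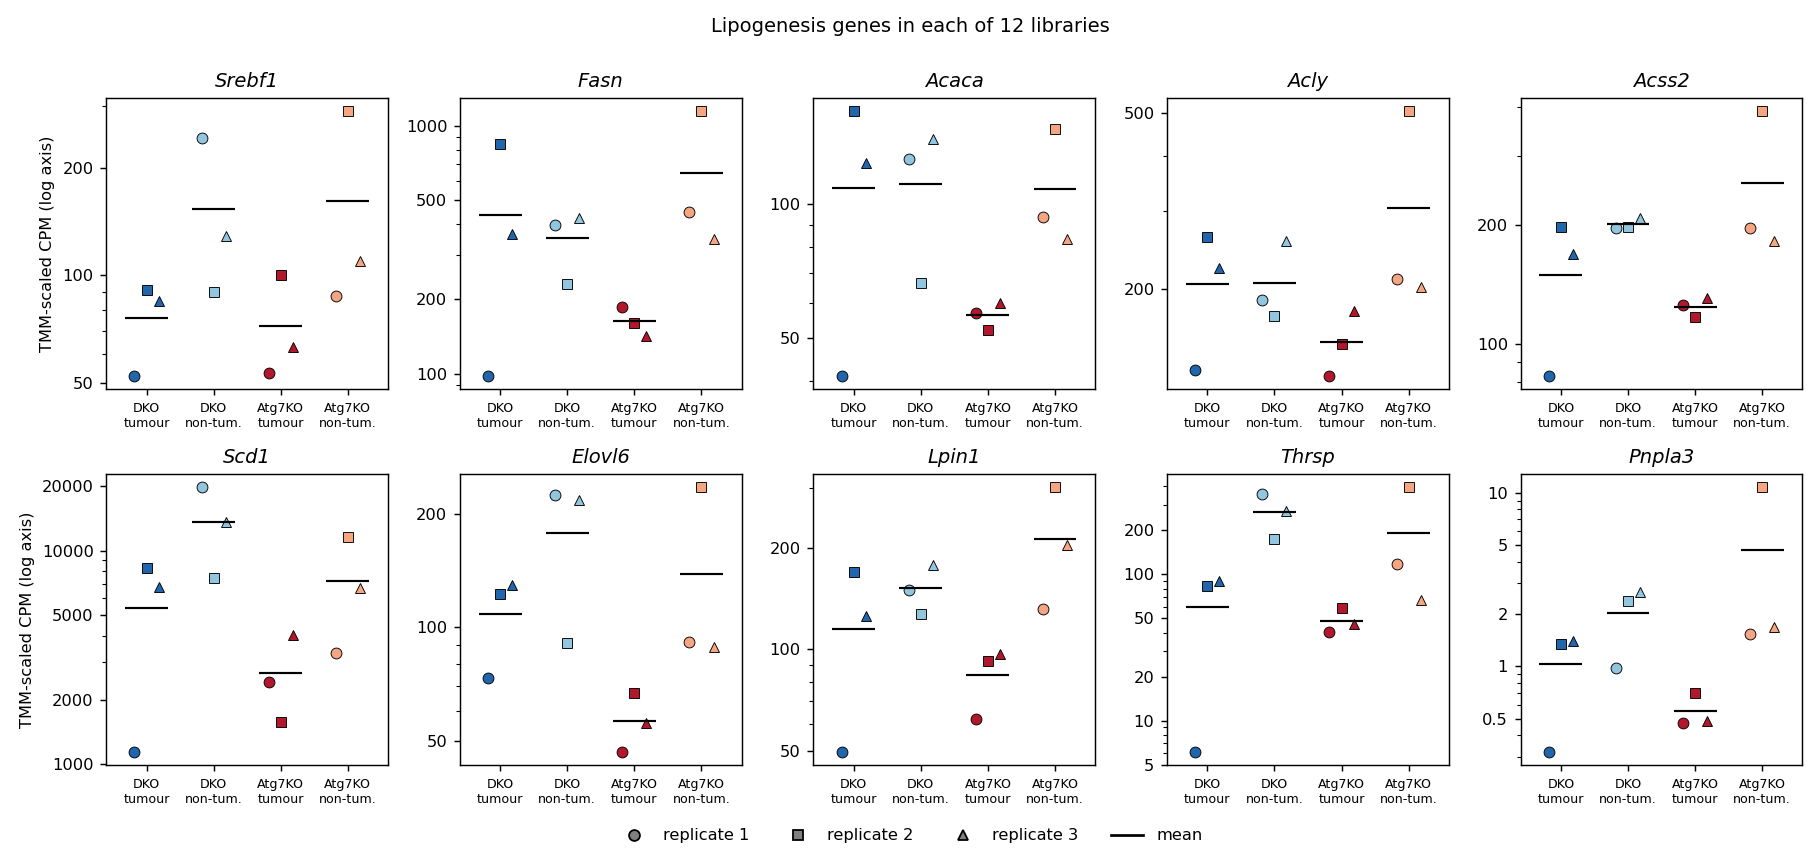
TMM-scaled CPM of the 10 lipogenesis genes (log axis) in each of the 12 libraries, by group, with replicates 1, 2 and 3 as circles, squares and triangles and the group mean as a line. The 3 Atg7KO tumours lie below all 3 Atg7KO non-tumour livers for 8 of 10 genes, and DKO tumour replicate 1 and Atg7KO non-tumour replicate 2 lie at the bottom and top of most panels.

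Srebf1, the transcriptional regulator of the pathway, had 52.1, 90.9 and 84.9 CPM in DKO tumours, against 243, 89.8 and 129 CPM in DKO non-tumour liver. It had 53.3, 100.1 and 63.0 CPM in Atg7KO tumours, against 87.4, 289 and 109.7 CPM in Atg7KO non-tumour liver. In both genotypes the tumours were the lower group, but the ranges overlapped through a non-tumour library near 90 CPM. The log2 fold change was -1.02 ± 0.48 in DKO livers and -1.17 ± 0.49 in Atg7KO livers (SE, n = 3 against 3, edgeR adjusted p = 0.236 and 0.258). The counted gene model spans chr11:60199089-60220604 on the minus strand of mm10. It begins 23 bases from a start upstream of the SREBP-1c start, and a further start lies upstream of that, so SREBP-1a and SREBP-1c transcripts could not be separated. The exons of the model share 107 bases with Rai1 on the opposite strand, and the strand setting of the counting was not given in the sources used here.

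Of the enzymes that supply acetyl-CoA, Acly had 130.4, 262 and 222 CPM in DKO tumours, against 189, 173 and 256 CPM in DKO non-tumour liver. It had 127, 149.8 and 178 CPM in Atg7KO tumours, against 210.3, 504 and 201 CPM in Atg7KO non-tumour liver. The Atg7KO groups did not overlap, while the DKO groups overlapped fully and their estimate was near 0. Acss2 had 82.6, 198 and 169 CPM in DKO tumours, against 196, 198 and 209 CPM in DKO non-tumour liver. It had 125, 117 and 131 CPM in Atg7KO tumours, against 197, 389 and 182 CPM in Atg7KO non-tumour liver, again without overlap. The log2 fold change in Atg7KO livers was -1.01 ± 0.37 for Acly (SE, edgeR adjusted p = 0.219) and -1.04 ± 0.34 for Acss2 (SE, edgeR adjusted p = 0.190). In DKO livers it was -0.01 ± 0.37 for Acly and -0.42 ± 0.34 for Acss2. Acss2 shares 113 exon bases with Acss2os on the opposite strand.

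Fasn, the multidomain synthase of palmitate, had the largest interaction estimate of the 10. It had 97.8, 844 and 365 CPM in DKO tumours, against 399.7, 231 and 424 CPM in DKO non-tumour liver, and DKO tumours therefore held both the lowest and the highest value of the DKO libraries. In Atg7KO tumours it had 186, 160.2 and 141 CPM, against 448, 1142 and 349 CPM in Atg7KO non-tumour liver, and every tumour lay below every non-tumour library. The log2 fold change was 0.31 ± 0.63 in DKO livers and -1.99 ± 0.65 in Atg7KO livers, where it was 3.97-fold lower in tumours (SE, edgeR adjusted p = 0.802 and 0.190). The DKO estimate turned to -0.61 without DKO tumour replicate 2. Acaca, the carboxylase one step earlier, had 40.9, 162 and 124 CPM in DKO tumours, against 127, 66.2 and 140.5 CPM in DKO non-tumour liver. It had 56.8, 52.0 and 59.9 CPM in Atg7KO tumours, against 93.5, 148 and 83.7 CPM in Atg7KO non-tumour liver. Like Fasn, it was spread widely among DKO tumours and narrowly among Atg7KO tumours. Its log2 fold change was -0.03 ± 0.43 in DKO livers and -0.95 ± 0.44 in Atg7KO livers (SE, edgeR adjusted p = 0.976 and 0.299).

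Scd1, the desaturase that makes oleate and palmitoleate, was the most abundant member. It had 1135, 8283 and 6764 CPM in DKO tumours, against 19801, 7438 and 13576 CPM in DKO non-tumour liver. It had 2424, 1570.1 and 4001 CPM in Atg7KO tumours, against 3324, 11599 and 6717 CPM in Atg7KO non-tumour liver. The ranges overlapped in each genotype, and the log2 fold change was -1.33 ± 0.69 in DKO livers and -1.44 ± 0.69 in Atg7KO livers (SE, edgeR adjusted p = 0.270 and 0.323). Scd1 alone took 0.121% of the reads of DKO tumour replicate 1 and 1.69% of those of DKO non-tumour replicate 1, the lowest and highest share among the 12 libraries. Reads shared with the paralogues Scd2, Scd3 and Scd4 could have been lost or misassigned in counting. Elovl6, the elongase of saturated and monounsaturated chains, had 73.2, 123 and 129 CPM in DKO tumours, against 226, 91.0 and 219 CPM in DKO non-tumour liver. It had 46.6, 67.1 and 55.8 CPM in Atg7KO tumours, against 91.5, 236 and 89.0 CPM in Atg7KO non-tumour liver. Only the Atg7KO groups did not overlap. The log2 fold change was -0.72 ± 0.43 in DKO livers and -1.30 ± 0.43 in Atg7KO livers (SE, edgeR adjusted p = 0.337 and 0.195).

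Lpin1 had 49.5, 169 and 125 CPM in DKO tumours, against 149, 127 and 178 CPM in DKO non-tumour liver. It had 62.2, 92.1 and 96.5 CPM in Atg7KO tumours, against 132, 302 and 203 CPM in Atg7KO non-tumour liver, and only the Atg7KO groups were separate. The log2 fold change was -0.40 ± 0.41 in DKO livers and -1.34 ± 0.41 in Atg7KO livers (SE, edgeR adjusted p = 0.587 and 0.177). Thrsp was the one member whose groups did not overlap in either genotype. It had 6.08, 83.0 and 90.5 CPM in DKO tumours, against 353, 176 and 274 CPM in DKO non-tumour liver. It had 40.1, 58.7 and 46.1 CPM in Atg7KO tumours, against 118, 394 and 67.1 CPM in Atg7KO non-tumour liver. The tumours were 4.47-fold lower in DKO livers and 4.00-fold lower in Atg7KO livers, with log2 fold changes of -2.16 ± 0.83 and -1.999 ± 0.83 (SE, edgeR adjusted p = 0.167 and 0.258). DKO tumour replicate 1, at 209 reads, was far below the other DKO tumours. Pnpla3 was rare, with 11 to 270 reads per library. It had 0.320, 1.35 and 1.41 CPM in DKO tumours, against 0.977, 2.39 and 2.68 CPM in DKO non-tumour liver. It had 0.469, 0.704 and 0.482 CPM in Atg7KO tumours, against 1.53, 10.7 and 1.68 CPM in Atg7KO non-tumour liver. Its log2 fold change of -3.06 ± 0.84 in Atg7KO livers (SE, edgeR adjusted p = 0.150) was the largest of the 10 in size, and it was -1.53 without Atg7KO non-tumour replicate 2. In DKO livers it was -0.97 ± 0.78 (SE, edgeR adjusted p = 0.480).

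Counted over the list, edgeR called 0 of 10 members in Atg7KO livers at an adjusted p under 0.05, where it called 0.0% of the 14443 genes tested in either direction. At an unadjusted p under 0.05, 8 of 10 members were lower in Atg7KO tumours, against 8.74% of all genes lower. The tumour and non-tumour libraries were separate, with tumours lower, for 8 of 10 members, against 11.9% of all genes, and 9 of 10 had a log2 fold change at or below -1, against 7.93% of all genes. As the list was chosen with earlier results of these data known, these counts describe the members and are no test against those shares. DESeq2 called 2.31% of its genes lower in Atg7KO tumours, among them Pnpla3, Fasn and Lpin1 (DESeq2 adjusted p = 0.00557, 0.0314 and 0.0412). Without Atg7KO non-tumour replicate 2 the number of members lower at an unadjusted p under 0.05 was 2 of 10, against 5.83% of all genes, and the median was -0.79. Leaving out Atg7KO tumour replicate 1 gave 5 of 10, against 6.27% of all genes. The count also varied with the method on all 12 libraries. It was 5 of 10 with limma voom with quality weights, against 10.7% of all genes, and 7 of 10 with the replicate block, against 8.09%. With DESeq2 it was 10 of 10, against 9.2%.

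In DKO livers edgeR called 0 of 10 members and 0.0% of all genes. At an unadjusted p under 0.05, 1 of 10 members, Thrsp, was lower in DKO tumours, against 10.3% of all genes, a share close to the background. Leaving out 1 library gave from 0 of 10, against 5.69% of all genes (without DKO non-tumour replicate 1), to 3 of 10, against 5.72% (without DKO non-tumour replicate 2). Thrsp was also the only member with separate groups, against 13.8% of all genes. DESeq2 called Thrsp (DESeq2 adjusted p = 0.0421) among the 3.9% of its genes that it called lower. The median of the members was -0.32 without DKO tumour replicate 1. An offset for gene length gave 3 of 10 members lower by unadjusted p, against 5.66% of all genes, with a median of -0.89. Those 3 were Srebf1, Scd1 and Elovl6, so the count in DKO livers depended on the length correction.

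Averaged over both genotypes, edgeR called 0 of 10 members, against 0.00692% of all genes, and all 10 were below 0, against 48.8% of all genes. At an unadjusted p under 0.05, 7 of 10 were lower, against 10.5% of all genes. Those 7 were Srebf1, Acss2, Scd1, Elovl6, Lpin1, Thrsp and Pnpla3, with Acly, Acaca and Fasn the exceptions. The lowest adjusted p were those of Pnpla3 (log2 fold change -2.01 ± 0.57 SE, edgeR adjusted p = 0.0970) and Thrsp (-2.08 ± 0.59 SE, edgeR adjusted p = 0.0971). DESeq2 called 7 members in this average, which were Srebf1, Acss2, Scd1, Elovl6, Lpin1, Thrsp and Pnpla3, with adjusted p from 0.00301 to 0.0453, and it called 4.09% of its genes lower. The average stayed at 7 of 10 members by unadjusted p, against 7.52% of all genes, when DKO tumour replicate 1 and Atg7KO non-tumour replicate 2 were both left out, a setting chosen after the data were seen.

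**Figure D2:**
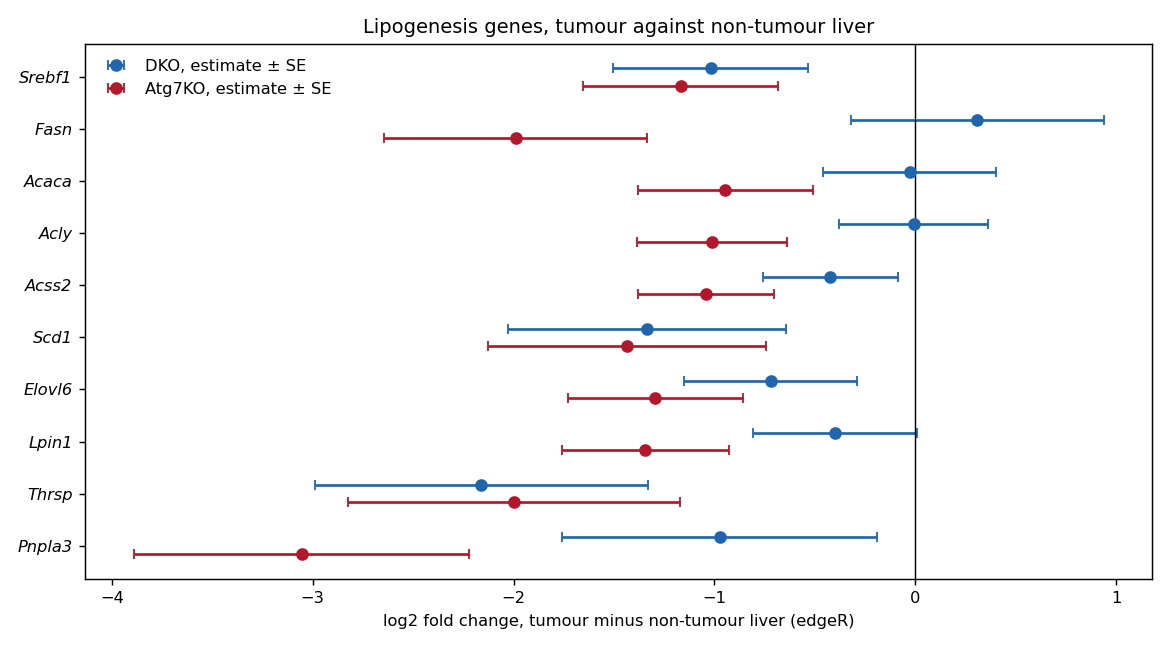
Log2 fold change of each lipogenesis gene, tumour minus non-tumour liver, as the edgeR estimate ± SE, with DKO (blue) above Atg7KO (red) for each gene. All 10 Atg7KO estimates lie below 0, whereas the DKO estimates of Fasn, Acaca, Acly and Lpin1 lie within 1 SE of 0.

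DKO and Atg7KO livers differ in Hmgb1 by their labels and in sex by their sex-linked transcripts, and these differences cannot be told apart. Among tumours all 10 members had log2 fold changes above 0, against 50.3% of all genes, with a median of 0.67. EdgeR called 0 of 10, against 0.0485% of all genes, and 2 of 10 were higher in DKO tumours at an unadjusted p under 0.05, against 8.34% of all genes. These were Fasn (1.42 ± 0.64 SE, edgeR adjusted p = 0.296) and Acaca (0.95 ± 0.44 SE, edgeR adjusted p = 0.299). Elovl6 was the only member with separate groups, higher in all 3 DKO tumours than in all 3 Atg7KO tumours (0.94 ± 0.43 SE, edgeR adjusted p = 0.303), against 9.95% of all genes. These counts varied with the libraries and the length correction. With an offset for gene length the number higher by unadjusted p was 0 of 10, against 7.13% of all genes, with Fasn at 1.05 and Acaca at 0.62, and these 2 have the longest gene models of the 10 (9938 and 9032 bases). Without DKO tumour replicate 1 the number of members higher by unadjusted p was 5 of 10, against 5.69% of all genes, and without both that library and Atg7KO non-tumour replicate 2 it was 9 of 10, against 6.21% of all genes. The setting without both was chosen after the levels of the members were seen. Leaving out the DKO tumour with the lowest levels raises these estimates by design, so neither count is support for a difference. The number was 0 of 10 without any 1 of the 3 Atg7KO tumours, DKO tumour replicates 2 and 3 or DKO non-tumour replicates 1 and 3, against 6.52% to 9.71% of all genes. EdgeR called 0 members in each of these settings.

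In non-tumour liver 6 members were below 0, against 53.9% of all genes, and 4 above, the median was -0.21, and edgeR called 0 of 10, against 0.0554% of all genes. Scd1 had the highest estimate there (0.92 ± 0.69 SE, edgeR adjusted p = 0.540) and Pnpla3 the lowest (-1.20 ± 0.77 SE, edgeR adjusted p = 0.476). Without Atg7KO non-tumour replicate 2 the non-tumour median was 0.33, the opposite sign, and Pnpla3 stood at 0.33.

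The difference between the tumour effects of the genotypes was tested as an interaction, for which edgeR called 0 of 10 members and 0.0% of all genes. Here too genotype and sex cannot be told apart. Fasn was the 1 member past an unadjusted p of 0.05, against 9.43% of all genes higher, with a tumour effect 2.30 ± 0.90 higher in DKO than in Atg7KO livers on the log2 scale (SE, edgeR adjusted p = 0.223). Pnpla3 stood at 2.08 ± 1.12 and Acly at 1.004 ± 0.52, while Scd1 at 0.10 ± 0.96, Srebf1 at 0.15 ± 0.68 and Thrsp at -0.16 ± 1.13 were near 0 with wide errors. With an offset for gene length no member passed that p, against 3.88% of all genes, and the interaction of Fasn was 1.40. Over all genes the interaction had a Spearman correlation with gene length of 0.574. For 9 of 10 members the interaction was above 0, against 52.1% of all genes. The median was 0.77, and 0.31 without Atg7KO non-tumour replicate 2. Without DKO tumour replicate 1, 6 of 10 members were above 0 at an unadjusted p under 0.05, against 7.61% of all genes, and without Atg7KO non-tumour replicate 2 none of the 10 was, against 8.2%. Leaving out the DKO tumour with the lowest levels raises the interaction by design. Leaving out the Atg7KO non-tumour library with the highest levels lowers it by design. Neither count is therefore support for or against a difference.

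The levels of the members varied together across libraries. As a description over 12 libraries that share their groups and depth, the log2 CPM of each member had a Pearson correlation with the mean of the other 9 from 0.848 for Srebf1 to 0.958 for Acss2. The score of a library, the mean over members of log2 CPM centred on the 12 libraries, was -1.51, 0.40 and 0.14 in DKO tumours, against 0.71, 0.11 and 0.77 in DKO non-tumour liver. It was -0.92, -0.70 and -0.69 in Atg7KO tumours, against 0.05, 1.53 and 0.11 in Atg7KO non-tumour liver. The Atg7KO tumours were alike and all low, whereas DKO tumours held the lowest score of all and also scores as high as non-tumour liver. The 10 genes together took 0.177% to 1.85% of the reads of a library.

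Levels were compared between genes per kilobase of gene model. Averaged over the 12 libraries the order was Scd1 at 1490 CPM per kilobase, Thrsp at 137, Acss2 at 64.5, Acly at 49.0, Fasn at 40.2, Srebf1 at 27.0, Lpin1 at 24.5, Elovl6 at 20.3, Acaca at 10.7 and Pnpla3 at 0.443. Within Atg7KO tumours Thrsp (46.5 ± 9.16) and Acss2 (43.9 ± 2.45) lay within their spread, as did Srebf1 (16.8 ± 5.75), Fasn (16.4 ± 2.27) and Lpin1 (14.6 ± 3.26, all CPM per kilobase, mean ± SD, n = 3). Scd1 led and Pnpla3 came last in every group.

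Ratios between members within a library, were chosen after their values were seen and were not tested. Fasn over Thrsp CPM was 16.1, 10.2 and 4.03 in DKO tumours, against 1.13, 1.31 and 1.55 in DKO non-tumour liver, and these groups did not overlap. It was 4.65, 2.73 and 3.07 in Atg7KO tumours, against 3.80, 2.90 and 5.21 in Atg7KO non-tumour liver, where they did. Scd1 over Fasn CPM was 11.6, 9.81 and 18.5 in DKO tumours, against 49.5, 32.2 and 31.99 in DKO non-tumour liver, also without overlap. In Atg7KO livers it was 13.0, 9.80 and 28.3 in tumours, against 7.43, 10.2 and 19.2 in non-tumour liver. Fasn over Srebf1 CPM was 1.88, 9.29 and 4.30 in DKO tumours, against 1.64, 2.57 and 3.30 in DKO non-tumour liver, with overlap. It was 3.50, 1.60 and 2.25 in Atg7KO tumours, against 5.12, 3.95 and 3.18 in Atg7KO non-tumour liver, also with overlap, and the tumours there were on the lower side.

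**Figure D3:**
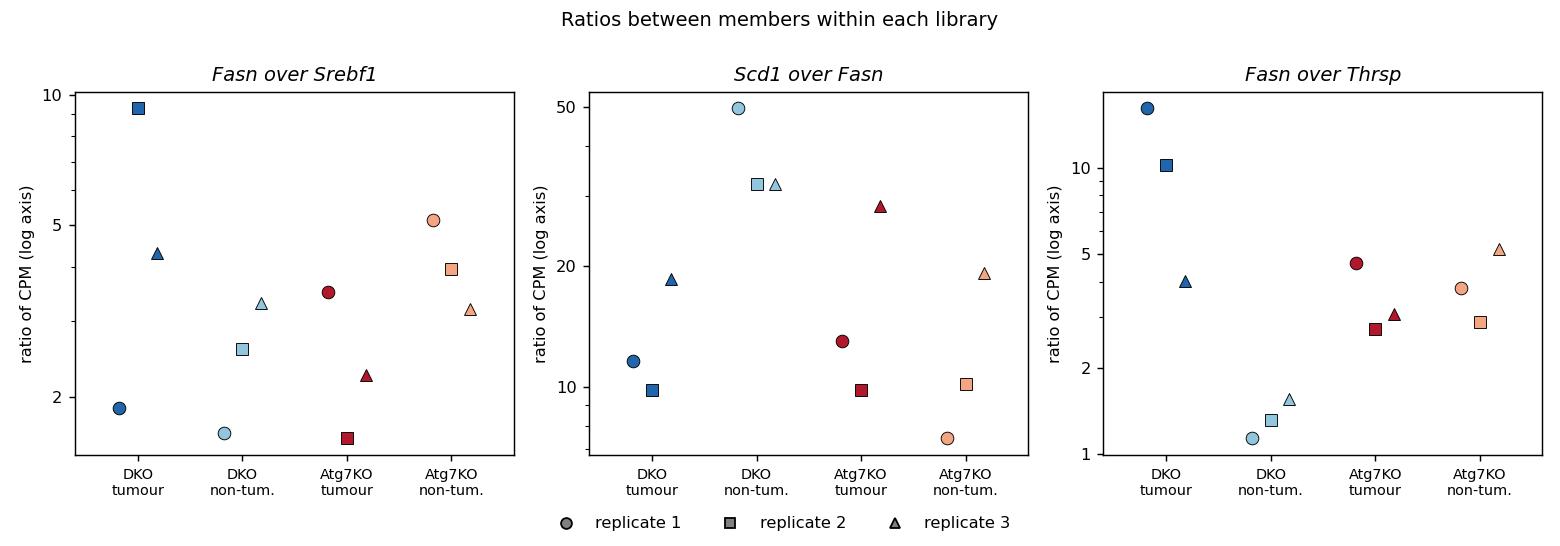
Ratios of CPM between 2 lipogenesis genes in the same library (log axes), by group, with replicates 1, 2 and 3 as circles, squares and triangles. Fasn over Thrsp lies between 4.03 and 16.1 in DKO tumours and between 1.13 and 1.55 in DKO non-tumour liver, and Scd1 over Fasn is lower in DKO tumours than in DKO non-tumour liver.

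Promoter windows from RefSeq (GRCm38.p6, the assembly also named mm10), 250 bases before to 50 after a start, were matched by symbol for 9 members with 11 windows; Scd1 had no entry. Shown are the windows of Srebf1 at the most downstream of its starts, the SREBP-1c start, of Fasn, and of Thrsp and Pnpla3, the members with the lowest adjusted p in the average over genotypes. Capitals mark the NF-Y box CCAAT on either strand and, in Srebf1 and Fasn, a direct repeat of TNACC with 5 bases between, whose letters were chosen after the sequences were read. The windows are chr11:60210422-60210721 (minus strand) for Srebf1, chr11:120824498-120824797 (minus strand) for Fasn, chr7:97417501-97417800 (minus strand) for Thrsp and chr15:84167566-84167865 (plus strand) for Pnpla3.
Srebf1: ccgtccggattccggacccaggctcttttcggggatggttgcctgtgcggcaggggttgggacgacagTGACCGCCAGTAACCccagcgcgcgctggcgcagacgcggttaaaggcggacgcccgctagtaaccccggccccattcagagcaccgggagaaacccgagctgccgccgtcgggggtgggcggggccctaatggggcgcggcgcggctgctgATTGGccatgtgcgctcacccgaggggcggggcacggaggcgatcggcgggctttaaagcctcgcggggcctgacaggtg
Fasn: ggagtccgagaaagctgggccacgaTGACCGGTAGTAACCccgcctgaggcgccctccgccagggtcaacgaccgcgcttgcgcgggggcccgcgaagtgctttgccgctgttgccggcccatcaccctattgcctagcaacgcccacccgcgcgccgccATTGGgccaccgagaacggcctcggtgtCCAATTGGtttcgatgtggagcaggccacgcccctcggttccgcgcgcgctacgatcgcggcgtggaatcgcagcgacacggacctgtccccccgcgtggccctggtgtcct
Thrsp: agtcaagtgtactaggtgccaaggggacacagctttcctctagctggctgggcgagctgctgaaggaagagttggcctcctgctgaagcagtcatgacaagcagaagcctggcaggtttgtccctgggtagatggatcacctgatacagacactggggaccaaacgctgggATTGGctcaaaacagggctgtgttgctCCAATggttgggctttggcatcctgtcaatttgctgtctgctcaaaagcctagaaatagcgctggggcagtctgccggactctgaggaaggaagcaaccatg
Pnpla3: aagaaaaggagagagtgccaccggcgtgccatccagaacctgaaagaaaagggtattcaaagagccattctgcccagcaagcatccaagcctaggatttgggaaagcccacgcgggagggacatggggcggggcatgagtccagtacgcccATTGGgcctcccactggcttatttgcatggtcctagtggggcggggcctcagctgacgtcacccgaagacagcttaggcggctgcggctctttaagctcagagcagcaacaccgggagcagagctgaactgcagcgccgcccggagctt

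The direct repeat was TGACCGCCAGTAACC in the Srebf1 window, 182 bases before the start, and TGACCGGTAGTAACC in the Fasn window, 225 bases before it, with 13 of 15 positions identical. The liver X receptor and its partner, the retinoid X receptor, bind direct repeats of 6-base sites spaced by 4 bases, the spacing found here. The pattern, searched on both strands, was in 0.718% of all 32851 promoter windows and in no window of the other 7 members matched. As its letters were chosen after the sequences were read, the matches in Srebf1 and Fasn are no test against that share. CCAAT, searched on both strands, was in 7 of the 11 windows, those of 6 members, against 37.4% of all windows, with 3 such boxes in Fasn and 2 in Thrsp. GGGCGG, the box of Sp1, was in 5 of 11 windows, those of 4 members, against 35.7% of all windows. CACGTG, an E-box that USF proteins bind, and TCACNCCAC, the core of the classical sterol element, were in 0 of 11 windows, against 7.15% and 1.24% of all windows. These matches describe letters only. Srebf1 and Fasn, which share the repeat, had log2 fold changes of -1.17 ± 0.49 and -1.99 ± 0.65 in Atg7KO livers (SE). In DKO livers these were -1.02 ± 0.48 and 0.31 ± 0.63 (SE). The DKO value of Fasn was -0.24 with the offset for gene length and -0.14 with the replicate block. Any part of the repeat in these values was not tested.

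The pathways around lipogenesis were described by lists of their genes, and edgeR called no gene of any of them in either tumour comparison. In Atg7KO livers the medians of the 9 neighbouring lists lay between -0.29 (cholesterol synthesis) and 0.13 (NADPH supply), while that of lipogenesis was -1.32. In DKO livers lipogenesis, at -0.57, was not the lowest list: the median was -0.78 for carbohydrate entry, and -0.47 for lipid droplets and -0.42 for uptake and export came close to it. All counts by unadjusted p in these lists are to be read against 10.3% of all genes lower and 12.2% higher in DKO tumours, and 8.74% lower and 8.04% higher in Atg7KO tumours. Of 6 genes that supply NADPH to fatty acid synthesis, 1 was higher at an unadjusted p under 0.05 in Atg7KO tumours, against 8.04% of all genes higher, and 0 were lower. That gene was G6pdx, the entry enzyme of the pentose phosphate pathway, with 186, 260.0 and 203 CPM in Atg7KO tumours, against 72.9, 23.3 and 56.8 CPM in Atg7KO non-tumour liver (log2 fold change 2.08 ± 0.54 SE, edgeR adjusted p = 0.129). In DKO livers G6pdx had 23.9, 46.2 and 109.1 CPM in tumours, against 34.6, 45.1 and 69.2 CPM in non-tumour liver, with overlap. Of 21 regulators of SREBP-1c and lipogenic transcription, 1 was lower and 0 higher in Atg7KO tumours by unadjusted p (8.74% and 8.04% of all genes), and 3 were lower and 2 higher in DKO tumours (10.3% and 12.2% of all genes), shares near or below the background. Sp1, the zinc finger activator, was lower in Atg7KO tumours (-0.50 ± 0.20 SE, edgeR adjusted p = 0.241) and higher in DKO tumours (0.60 ± 0.20 SE, edgeR adjusted p = 0.136).

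Of 12 genes for carbohydrate entry and glycolytic supply, 6 were lower at an unadjusted p under 0.05 in DKO tumours, against 10.3% of all genes, and 1 was lower in Atg7KO tumours. Khk, the fructokinase, had 54.7, 135 and 248 CPM in DKO tumours, against 425, 375 and 307 CPM in DKO non-tumour liver, without overlap (-1.34 ± 0.51 SE, edgeR adjusted p = 0.162). In the same tumours the estimates of Fasn, Acaca, Acly and Lpin1 lay within 1 SE of 0. The other members were lower by more than 1 SE, namely Thrsp (-2.16), Scd1 (-1.33), Srebf1 (-1.02), Pnpla3 (-0.97), Elovl6 (-0.72) and Acss2 (-0.42).

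The list of other desaturases and elongases also held Acacb and Mcat, which are neither. Of its 16 genes tested, 2 were lower and 2 higher in DKO tumours by unadjusted p, near the background of 10.3% and 12.2%, and 3 were lower and 0 higher in Atg7KO tumours, against 8.74% and 8.04%. Scd2, the desaturase paralogue of Scd1, had 76.2, 389.7 and 224 CPM in DKO tumours, against 32.1, 53.8 and 101.3 CPM in DKO non-tumour liver (1.88 ± 0.56 SE, edgeR adjusted p = 0.126), the opposite direction to Scd1. Fads1, the delta-5 desaturase of polyunsaturated fatty acids, had 233, 273 and 117 CPM in Atg7KO tumours, against 309.5, 1193 and 370.0 CPM in Atg7KO non-tumour liver (-1.59 ± 0.58 SE, edgeR adjusted p = 0.215). Elovl5 (-1.31 ± 0.56) and Elovl2 (-1.08 ± 0.49), elongases of polyunsaturated chains, were also lower in Atg7KO tumours (SE, edgeR adjusted p = 0.267 and 0.292). In triglyceride synthesis, 2 of 17 genes were lower and 1 higher in Atg7KO tumours, against 8.74% and 8.04% of all genes, and 1 was lower and 2 higher in DKO tumours, against 10.3% and 12.2%, all near the background. Acsl4, which activates arachidonate, was on the higher side in both genotypes (0.98 ± 0.34 in DKO and 0.81 ± 0.34 in Atg7KO livers, SE, edgeR adjusted p = 0.143 and 0.267).

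Of 20 lipid droplet and lipolysis genes tested, 4 were lower and 0 higher in DKO tumours, against 10.3% and 12.2% of all genes, and 1 was lower and 3 higher in Atg7KO tumours by unadjusted p, against 8.74% and 8.04%. The 3 higher were Plin3, a droplet coat protein, Hilpda, an inhibitor of adipose triglyceride lipase, and the droplet enzyme Hsd17b13. Plin3 had 206, 199 and 119 CPM in Atg7KO tumours, against 95.0, 76.5 and 74.5 CPM in Atg7KO non-tumour liver, without overlap (1.09 ± 0.22 SE, edgeR adjusted p = 0.112). Hilpda stood at 1.47 ± 0.32 and Hsd17b13 at 0.90 ± 0.35 (SE, edgeR adjusted p = 0.112 and 0.235). The median of the droplet list was -0.47 in DKO and 0.01 in Atg7KO livers. Of 18 genes of fatty acid uptake and lipoprotein export, 7 were lower and 3 higher in DKO tumours, against 10.3% and 12.2% of all genes, and 4 were lower and 0 higher in Atg7KO tumours, against 8.74% and 8.04%. Fabp1, the liver fatty acid binding protein, stood at -2.31 ± 0.75 in DKO livers (SE, edgeR adjusted p = 0.135). Lipc, hepatic lipase, stood at -1.55 ± 0.47 in DKO and -1.12 ± 0.46 in Atg7KO livers (SE, edgeR adjusted p = 0.127 and 0.258).

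**Figure D4:**
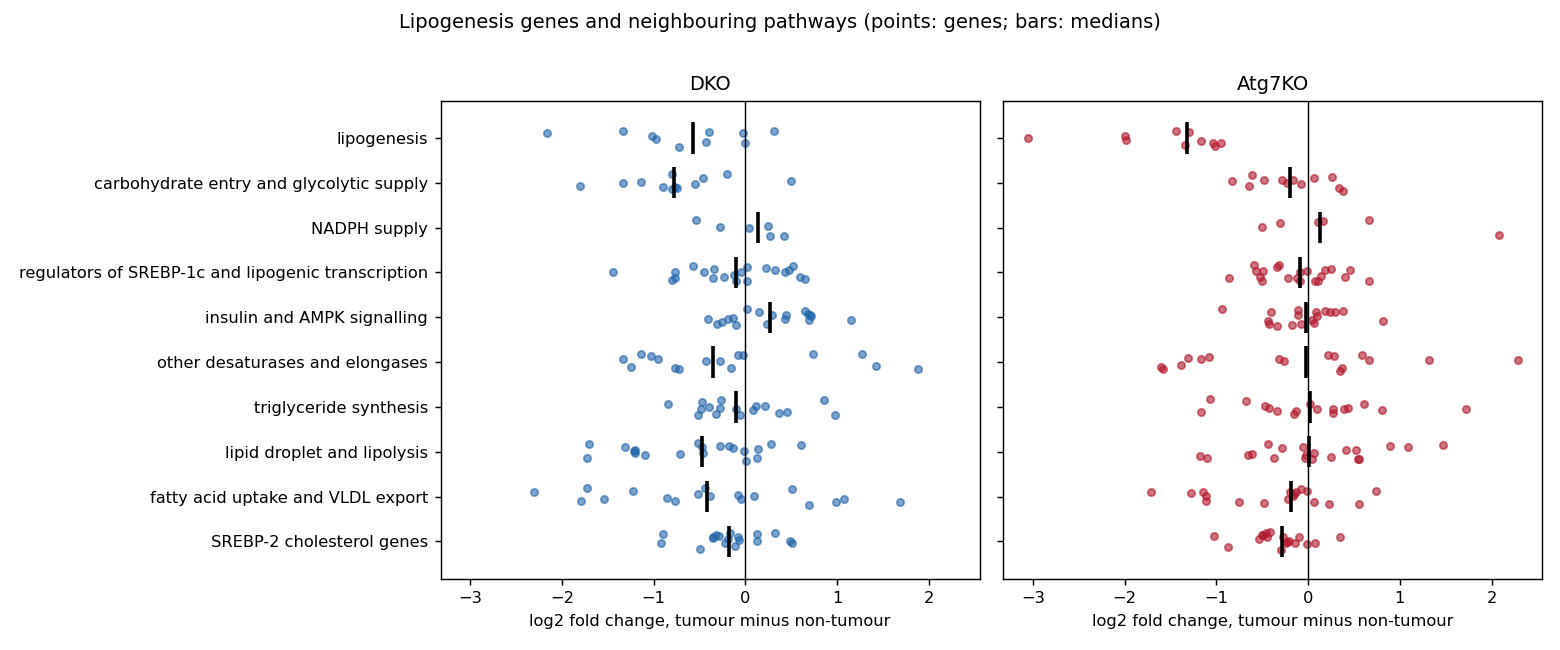
Log2 fold change, tumour minus non-tumour liver, of each tested gene of the lipogenesis list and 9 neighbouring lists (points; bars are list medians), in DKO (left) and Atg7KO livers (right). The lipogenesis median is -0.57 in DKO and -1.32 in Atg7KO livers, and lipogenesis is the only list drawn whose genes all lie below 0 in Atg7KO livers. Of the marker lists, not drawn, all pericentral (8 of 8), stellate (6 of 6) and B cell markers (4 of 4) also lay below 0 there.

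The 8 genes outside the list with the pattern most like the members' score, by Pearson correlation over 12 libraries among 10519 genes of at least 5 CPM, were Echdc1 (0.967), Ugt1a5 (0.962), Slco2b1 (0.944), Cmah (0.933), Slc10a1 (0.932), Slco1b2 (0.931), Elovl5 (0.929) and Cyp4a14 (0.928). Slco2b1 and Slco1b2 carry organic anions into hepatocytes, and Slc10a1 carries bile acids. Slc10a1 averaged 104 ± 74.3 CPM in DKO tumours and 365 ± 145 CPM in DKO non-tumour liver, and 73.3 ± 17.7 CPM in Atg7KO tumours and 353 ± 286 CPM in Atg7KO non-tumour liver (SD, n = 3 each). Ugt1a5 shares exons with other Ugt1a genes, so its counts are uncertain.

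Median log2 fold changes of the markers of several cell types also lay below 0. In Atg7KO livers the pericentral hepatocyte markers had a median log2 fold change of -2.73 (6 of 8 lower at an unadjusted p under 0.05), cholangiocyte markers -2.05 (4 of 6), stellate markers -1.27 (5 of 6), B cell markers -0.83 (0 of 4), macrophage markers -0.28 (1 of 6) and hepatocyte markers -0.20 (1 of 8), against 8.74% of all genes lower. In DKO livers the medians were -1.34 for pericentral (3 of 8), -1.17 for B cell (1 of 4), -0.76 for hepatocyte (1 of 8), -0.58 for macrophage (0 of 6), -0.19 for stellate (1 of 6) and -0.01 for cholangiocyte markers (0 of 6), against 10.3% of all genes lower. Endothelial markers had medians of 0.49 in DKO and 0.05 in Atg7KO livers. EdgeR called none of these markers in either tumour comparison. The 8 hepatocyte markers summed to 55748 to 65457 CPM in DKO tumours, against 59659 to 102453 CPM in DKO non-tumour liver, and to 25762 to 80160 CPM in Atg7KO tumours, against 51906 to 111150 CPM in Atg7KO non-tumour liver. Hepatocyte markers were thus abundant in all 12 libraries. The 8 pericentral markers, among them Glul, Cyp2e1 and Axin2, summed to 542, 3513 and 3116 CPM in DKO tumours, against 11598, 7750 and 5613 CPM in DKO non-tumour liver. They summed to 2025, 1250.0 and 1073 CPM in Atg7KO tumours, against 3932, 11070 and 3110 CPM in Atg7KO non-tumour liver. DKO tumour replicate 1 was lowest and Atg7KO non-tumour replicate 2 highest in its genotype, as for the members. In bulk tissue, fewer cells of a type and less RNA per cell cannot be told apart, and the part of these markers in the result was not tested.

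The 6 stellate markers summed to 259 to 445 CPM in DKO tumours, against 357 to 607 CPM in DKO non-tumour liver, and to 199 to 285 CPM in Atg7KO tumours, against 424 to 728 CPM in Atg7KO non-tumour liver. The 6 cholangiocyte markers summed to 420 to 1064 CPM in DKO tumours, against 337 to 1162 CPM in DKO non-tumour liver, and were 786, 6469 and 436 CPM in Atg7KO tumours, against 1157, 446 and 1177 CPM in Atg7KO non-tumour liver, where Atg7KO tumour replicate 2 alone carried the high sum. The 6 macrophage markers summed to 371 to 509 CPM in DKO tumours, against 566 to 656 CPM in DKO non-tumour liver, and to 206 to 782 CPM in Atg7KO tumours, against 479 to 663 CPM in Atg7KO non-tumour liver. The 4 B cell markers summed to 9.79 to 13.8 CPM in DKO tumours, against 10.4 to 38.2 CPM in DKO non-tumour liver, and to 5.99 to 17.3 CPM in Atg7KO tumours, against 11.1 to 36.5 CPM in Atg7KO non-tumour liver. The 5 endothelial markers summed to 197 to 224 CPM in DKO tumours, against 148 to 199 CPM in DKO non-tumour liver, and to 202 to 257 CPM in Atg7KO tumours, against 204 to 259 CPM in Atg7KO non-tumour liver. Adipocytes also express this pathway. Their 7 markers summed to 104 to 157 CPM in DKO tumours, against 75.7 to 126 CPM in DKO non-tumour liver, and to 74.1 to 107 CPM in Atg7KO tumours, against 31.0 to 103 CPM in Atg7KO non-tumour liver. The defining markers Adipoq, Plin1 and Lep had 0 to 3 reads per library, at or near 0. The part of these cell types in the result was otherwise not tested.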

How the data were processed

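Liver RNA of 12 libraries was measured. The values are the authors' deposited raw counts, whole numbers of reads for each of 24421 RefSeq genes. Per the submitters' processing notes, bcl2fastq, STAR 2.5.3a, featureCounts of Subread 1.5.3, edgeR 3.20.8 and mm10 were used. Neither the strand setting nor the kit is given in the sources used here. Without strand, reads of overlapping opposite genes can be mixed.

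FilterByExpr, at a minimum count of 10 and a minimum total of 15, kept 14443 genes, and 4509 genes had no read. In R 4.3.3, the quasi-likelihood test of edgeR 4.0.16 (robust, legacy deviances, TMM factors) was run on a model of group means that held the 12 libraries together. Tests were two-sided, with Benjamini-Hochberg adjustment over all genes tested and calls at an adjusted p under 0.05. With 3 libraries a group the smallest exact permutation p is 0.1, and permutation was left out. The highest Spearman correlation between libraries was 0.986. The fitting was tested on simulated data. Alternatives were RLE scaling, no filter, an offset for gene length, DESeq2 1.42.0, limma 3.58.1 voom with quality weights, a replicate block, only the groups compared, and leaving out libraries.

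The members and lists were chosen with earlier results of these data known. Of each neighbouring list, up to 3 genes with the lowest unadjusted p per comparison could be named, besides the 8 genes of most similar pattern. Gene lengths in the deposited table gave CPM per kilobase, and figures were drawn with matplotlib 3.10.9.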

Additional observations from a re-analysis of the deposited data

How the results depend on the processing

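All 10 members kept log2 fold changes below 0 in Atg7KO livers and in the average over genotypes under every alternative run. EdgeR called 0 members in every comparison whichever library was left out, and limma voom on all 12 libraries also called 0; DESeq2 called 3 in Atg7KO livers, 1 in DKO livers and 7 in the average, and the cause was not tested. Genes called over all genes numbered 0 in Atg7KO livers, and 611 with DESeq2, 332 with voom, 3 with the replicate block and 6 without DKO tumour replicate 1 and Atg7KO non-tumour replicate 2; in DKO livers 0, and 1102 with DESeq2 and 1 with only the groups compared; in the average 1, and 14 with RLE, 21 with no filter, 8 with the length offset, 1236 with DESeq2, 510 with voom, 24 with the replicate block and 6 without the 2 libraries. Between tumours of the genotypes they numbered 7, and 12 with RLE, 11 with no filter, 13 with the offset, 551 with DESeq2, 37 with voom and 20 without the 2 libraries. Between non-tumour livers they numbered 8, and 189 with DESeq2 and 561 with voom, and for the interaction 0, and 408 with DESeq2 and 1 with the replicate block. With 1 library left out these counts ranged from 0 to 3 (Atg7KO), 0 to 597 (DKO, 597 without DKO non-tumour replicate 3), 0 to 133 (average, 133 without the same library), 7 to 30 (tumours, 30 without DKO tumour replicate 3) and 6 to 8 (non-tumour). 

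Signs turned for estimates near 0. In DKO livers Fasn was -0.24 with the offset and -0.14 with the replicate block, Acaca 0.31 with voom and 0.36 without the 2 libraries, and Acly 0.23 with voom, 0.00142 with only the groups compared and 0.23 without the 2 libraries. Between tumours Srebf1 was -0.036 with the offset. Between non-tumour livers Srebf1 was 0.10 with the offset, 0.38 with voom and 0.64 without the 2 libraries, where Acly was 0.00171, Acss2 0.087 and Pnpla3 0.33. For the interaction Srebf1 was -0.14 with the offset, -0.028 with voom and -0.36 without the 2 libraries, Scd1 -0.25 with the offset, -0.014 with voom and -0.21 with the replicate block, and Thrsp 0.44 with the offset. With 1 library left out, estimates ranged in DKO livers from -0.61 to 0.78 for Fasn, -0.43 to 0.36 for Acaca and -0.22 to 0.23 for Acly. Between tumours they ranged from -0.10 to 0.40 for Srebf1 and -0.11 to 0.85 for Thrsp. Between non-tumour livers they ranged from -0.56 to 0.64 for Srebf1, -0.17 to 0.33 for Acaca, -0.79 to 0.00158 for Acly, -0.54 to 0.087 for Acss2 and -1.62 to 0.33 for Pnpla3. For the interaction they ranged from -0.57 to 0.65 for Srebf1, -0.42 to 0.59 for Scd1, -0.044 to 0.81 for Elovl6 and -1.22 to 0.38 for Thrsp. The median of the members, with 1 library left out, ranged from -1.56 to -0.79 in Atg7KO livers and from -0.81 to -0.32 in DKO livers. In DKO livers it was -0.89 with the offset. Deviations of tumour and non-tumour libraries with the same number correlated at 0.02, 0.06 and 0.31 in Atg7KO livers and at 0.07, 0.33 and 0.02 in DKO livers. Those with different numbers correlated at -0.22 to 0.11 in Atg7KO livers and at -0.25 to 0.16 in DKO livers. Not every library correlated best with its own number, which does not decide whether the libraries are pairs. They were not treated as pairs because the labels do not say that a number marks an animal. With the replicate block the interaction of Fasn was 1.65 (unadjusted p = 0.142 in edgeR) and 0 members passed an unadjusted p of 0.05, against 8.54% of all genes higher.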

Other observations

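The cholesterol branch of the same transcription factor family was read from 18 genes. In Atg7KO tumours 16 of 18 were below 0, against 50.2% of all genes, with a median of -0.29, and 1 was lower at an unadjusted p under 0.05, against 8.74% of all genes. In DKO tumours 13 of 18 were below 0, against 49.1% of all genes, with a median of -0.18. By unadjusted p, 1 was lower and 1 higher there, against 10.3% and 12.2% of all genes. Pmvk, the phosphomevalonate kinase, stood at -0.92 ± 0.38 in DKO and -1.03 ± 0.38 in Atg7KO livers (SE, edgeR adjusted p = 0.185 and 0.221).

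Of 18 insulin and AMPK signalling genes, 4 were higher and 0 lower in DKO tumours at an unadjusted p under 0.05, against 12.2% of all genes higher, and 1 was higher and 0 lower in Atg7KO tumours, against 8.04%. Prkaa1, a catalytic subunit of AMPK, which phosphorylates and inhibits the product of Acaca, stood at 0.71 ± 0.24 in DKO and 0.81 ± 0.24 in Atg7KO livers (SE, edgeR adjusted p = 0.140 and 0.173). Irs1, an adaptor of the insulin receptor, stood at 1.15 ± 0.36 in DKO livers (SE, edgeR adjusted p = 0.128).

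Across the 14443 genes tested, as a description over genes that are not independent, log2 fold changes had a Spearman correlation with gene length of 0.495 in DKO livers, -0.251 in Atg7KO livers and 0.574 for the interaction.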
